A study of Danio rerio with 6 samples.

Results

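The genes described here encode collagens and small leucine-rich proteoglycans in tumours of zebrafish with ALL (acute lymphoblastic leukaemia), which arises from lymphocyte precursors. They were chosen by symbol alone. The rule took every gene whose symbol begins with col, a number, the letter a and a further number, plus lum, dcn, bgna, bgnb and fmoda. It found 50 of the 29095 genes listed in the deposited tables. Of these, 48 are collagens or proteoglycans by name. The other members, col4a3bpa and col4a3bpb, match the letters but are named for a protein that binds a collagen and carries ceramide between membranes, and they are given apart at the end. RNA was sequenced from 6 libraries, made from 3 tumours of the zebrafish strain CG2 with the numbers 1404, 1279 and 1314. Cells of each tumour were sorted by flow cytometry into a side population (SP), by convention the cells that pump a DNA-binding dye out, and a non-side population (nonSP), the cells that keep it. Each tumour gave 1 library of each fraction, so SP has n = 3 and nonSP has n = 3, in 3 pairs. No treatment and no transgene is named in the labels, and whether the tumours arose independently is not stated there, so the p-values concern these 3 pairs.

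Collagens are secreted proteins whose chains wind into a glycine-rich helix. Fibrillar collagens (types I, II, III, V and XI) form the ropes of bone, cartilage, tendon and skin, and some assemble from chains of different genes. Type IV makes the network of basement membranes, type VI makes beaded filaments around cells, type VII anchors epithelium to the tissue below, FACIT collagens (types IX, XII, XIV and relatives) sit on the surface of fibrils, and multiplexins (types XV and XVIII) lie at basement membranes. Small leucine-rich proteoglycans such as decorin (dcn), lumican (lum) and biglycan (bgna, bgnb) bind collagen fibrils and govern their spacing, and biglycan and decorin can also signal to immune cells. The usual source of these genes is the connective tissue cell rather than the lymphocyte. In a sorted bulk sample, fewer cells of a type and less RNA per cell cannot be told apart.

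Total counts were 45121124 to 55981608 in SP and 30213658 to 62398607 in nonSP. The 48 collagens and proteoglycans held 8365, 7929 and 13804 counts in SP and 1359, 915 and 3553 counts in nonSP (tumours 1404, 1279 and 1314, the order kept throughout). As CPM, the counts scaled to a common library total, this came to 149, 176 and 253 for SP, and to 21.8, 30.3 and 64 for nonSP. SP libraries held counts on 42, 42 and 37 of the 48 genes, and nonSP libraries on 33, 27 and 32. Levels below are CPM scaled by TMM factors. Without factors, on library totals alone, the median over all 15770 tested genes was a log2 fold change of 1.15, against 0.09 with TMM. Differences are stated relative to TMM scaling. The data hold no transcript lengths, so levels are compared between libraries and not between genes.

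Most collagen and proteoglycan genes with enough counts to be tested rose in SP relative to nonSP, among them col6a1 (a chain of type VI collagen), col15a1b (a type XV multiplexin), lum, bgnb and dcn. Among the 48, 20 had enough counts to be tested, of which 13 rose, 0 fell and 7 did not pass (edgeR's quasi-likelihood test, blocked by tumour, Benjamini-Hochberg adjusted p below 0.05 over 15770 genes). In the same fit 13% of all tested genes were higher and 9.40% were lower. Counting the ceramide transfer genes as well, 14 of 22 tested members rose and 0 fell. No tested member had a negative fold change, so 0 were lower at an unadjusted p below 0.05, and DESeq2 and limma voom also called 0 lower. The median log2 fold change of the 20 was 2.18, against 0.09 over all tested genes. Over the 22 tested members it was 2.15, and it was 1.21 with no filter (49 members, all genes 0.23) and 1.3 without tumour 1314 (all genes 0.11). Of the 20, 18 were higher in SP of 3 of 3 tumours, as were 4899 of the 15770 tested genes. The exceptions were col1a1b and col9a3, lower in SP of tumour 1404. SP lay above nonSP in every library, with no overlap between the fractions, for 9 of the 20 genes, against 8.64% of all tested genes. Inclusion in the test can favour genes that are high in a fraction. Of the 20, 18 reached the count minimum in all 3 SP libraries and 7 in all 3 nonSP libraries. With no filter, 15 of 49 members rose, against 10.1% of all genes in that fit. Without the tumour block edgeR called 0 of the 22 members and 0 of all tested genes. At an unadjusted p below 0.05 that fit had 9 members higher, beside 1251 of the 15770 genes in either direction. DESeq2 without the block called 2 members, col6a1 and col15a1b, beside 0.114% of all genes higher. limma voom without the block called 0 members, with 0% of all genes higher.

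**Figure D1:**
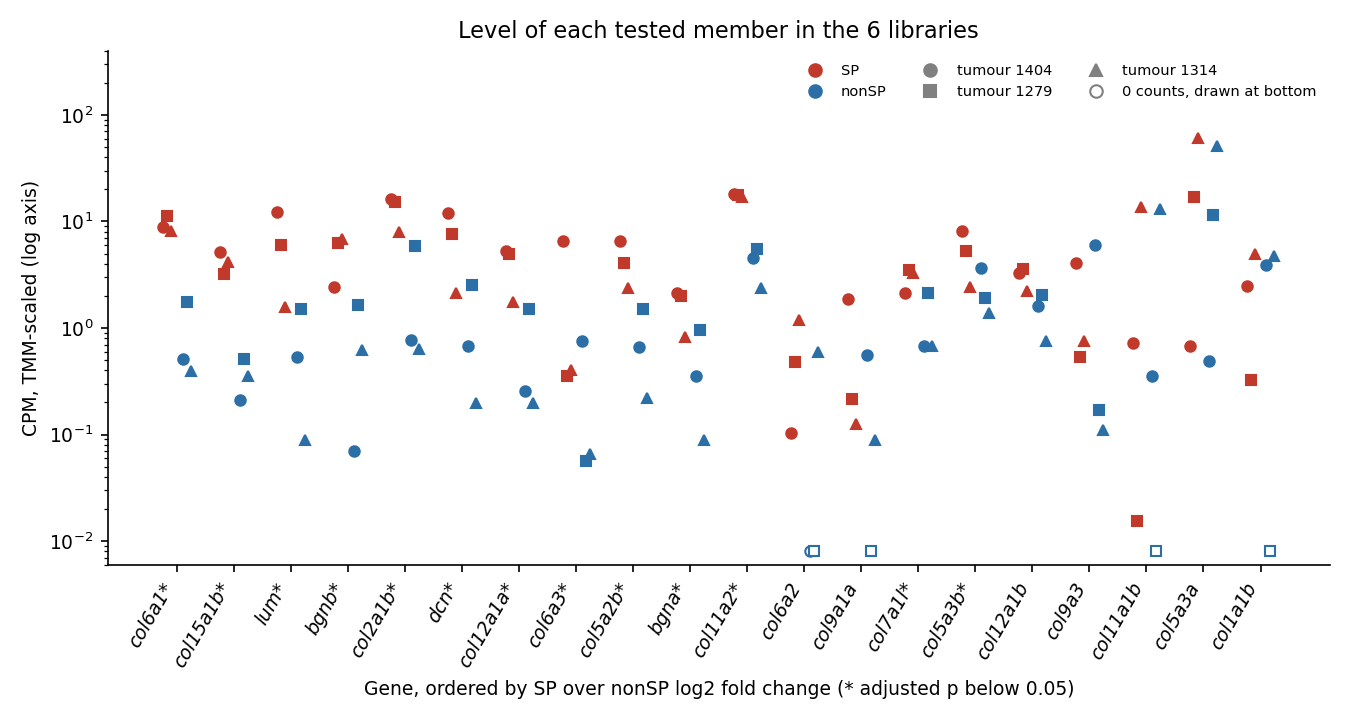
TMM-scaled CPM on a log axis of the 20 tested collagen and proteoglycan genes in each library, with SP in red left of nonSP in blue and a symbol for each tumour. Asterisks mark the 13 genes past the threshold. The 3 SP libraries of col11a2 lie at 16.9 to 18.1 CPM, above all nonSP libraries, while col5a3a and col11a1b separate by tumour.

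Among the proteoglycans, 4 of 5 were tested and 4 rose. lum had 12.3, 5.98 and 1.59 CPM in SP libraries, against 0.54, 1.52 and 0.0882 in nonSP libraries. The nonSP values of lum rested on 23, 27 and 4 counts. Every SP library was above every nonSP library, although SP of tumour 1314 was close to nonSP of tumour 1279. Its log2 fold change was 3.47 ± 0.54 (SE, n = 3 pairs, as for all values after ± below), or 11-fold (edgeR adjusted p = 0.000117). dcn had 11.9, 7.6 and 2.15 CPM in SP libraries, against 0.681, 2.54 and 0.199 in nonSP libraries. Here the fractions overlapped across tumours, since nonSP of tumour 1279 exceeded SP of tumour 1314, but SP was higher within each tumour. The log2 fold change of dcn was 3.01 ± 0.51 (edgeR adjusted p = 0.000288).

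Both biglycan copies rose. bgnb had 2.42, 6.23 and 6.91 CPM in SP libraries, against 0.0705, 1.64 and 0.618 in nonSP libraries, with no overlap between fractions (log2 fold change 3.26 ± 0.54, edgeR adjusted p = 0.000229). In tumour 1404 this rested on 163 counts in SP and 3 counts in nonSP. bgna had 2.15, 1.99 and 0.824 CPM in SP libraries, against 0.352, 0.959 and 0.0882 in nonSP libraries, so nonSP of tumour 1279 exceeded SP of tumour 1314. Its log2 fold change was 2.2 ± 0.58 (edgeR adjusted p = 0.00906), and without tumour 1314 it no longer passed (1.83, adjusted p = 0.0672). SP of bgnb was lowest in tumour 1404, where SP of bgna, dcn and lum was highest. fmoda, which encodes fibromodulin, had 1, 1 and 5 counts in SP libraries, against 0, 4 and 0 in nonSP libraries, too few to test.

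lum and dcn lie side by side in the zebrafish genome, and their neighbours epyc and kera belong to the same protein family. In the order of protein-coding genes in RefSeq assembly GRCz12tu, the run reads epyc, kera, lum, dcn. kera encodes keratocan, a keratan sulphate proteoglycan of the cornea, and epyc encodes epiphycan, known from growth-plate cartilage. The region was looked at after the values of lum and dcn were seen. kera had 616, 213 and 103 counts in SP libraries, against 31, 4 and 3 in nonSP libraries. Its log2 fold change was 3.78 ± 0.53 (edgeR adjusted p = 3.75e-05), with nearly equal log2 ratios of 3.58, 3.67 and 3.44 in the 3 tumours. epyc had 341, 127 and 52 counts in SP libraries, against 17, 8 and 3 in nonSP libraries, and rose by 2.97 ± 0.57. All 4 genes of the run were thus higher in SP, and SP of each was highest in tumour 1404 and lowest in tumour 1314. Across the 6 libraries, log2 CPM of lum and dcn correlated at 0.995, a description over libraries that share tumours in pairs. Genes on either side of the run gave other values. si:dkeyp-38g8.5, beyond epyc, changed by -1.94 ± 0.48, and btg1, an antiproliferative gene 2 places beyond dcn, stood at 0.66 ± 0.31 (edgeR adjusted p = 0.119). atp2b1a, a plasma membrane calcium pump gene 2 places beyond epyc, rose by 1.73 ± 0.4. A risen neighbour was not particular to this run. It was also found beside bgnb (si:dkey-32e6.6, 2.31 ± 0.44), bgna (si:ch211-229n2.6, 2.95 ± 1.02), col7a1l (lrguk, 2.03 ± 0.51) and col15a1b (slc12a7a, 1.46 ± 0.4). No neighbour of col2a1b, col5a2b, col5a3b, col11a2, col6a1, col6a3 or col12a1a was called. Over all tested genes 13% were higher.

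**Figure D2:**
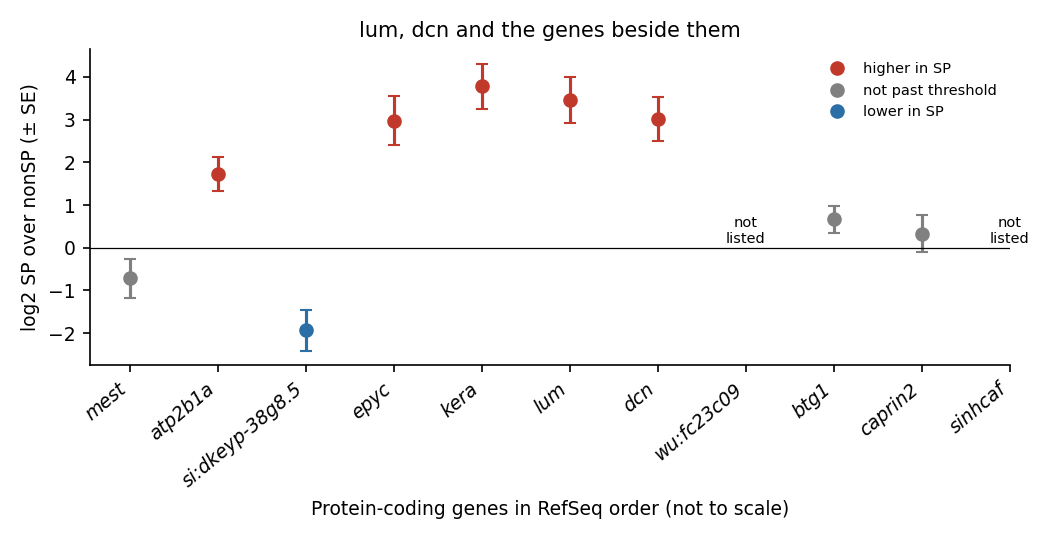
Log2 fold change of SP over nonSP (points, with SE as bars) for lum, dcn and nearby protein-coding genes in RefSeq order, with even spacing that is not to scale. The 4 proteoglycan genes lie between 2.97 and 3.78, and the nearest tested genes on either side at -1.94 and 0.66.

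Of 13 fibrillar collagen genes 7 were tested, and 4 rose. col2a1b, which encodes a type II chain, had 16.1, 15.2 and 8.04 CPM in SP libraries, against 0.775, 5.87 and 0.64 in nonSP libraries. All SP libraries were above all nonSP libraries, and nonSP of tumour 1279 was several times the other nonSP libraries. Its log2 fold change was 3.12 ± 0.51 (edgeR adjusted p = 0.000201), or 8.69-fold. Its copy col2a1a, the classical gene of cartilage and notochord in zebrafish, had only 7, 3 and 3 counts in SP libraries, against 1, 0 and 2 in nonSP libraries. col11a2, a chain of the thin fibrils of cartilage, had 18.1, 17.6 and 16.9 CPM in SP libraries, against 4.56, 5.47 and 2.38 in nonSP libraries. These SP values were the most even of the 20 genes over the tumours, the highest being 1.07 times the lowest. The log2 fold change of col11a2 was 2.17 ± 0.39 (edgeR adjusted p = 0.000552).

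Type V collagen, which starts and limits the growth of type I fibrils, was divided among its chains. col5a2b had 6.57, 4.07 and 2.39 CPM in SP libraries, against 0.658, 1.52 and 0.221 in nonSP libraries, without overlap. It rose by 2.7 ± 0.52 (edgeR adjusted p = 0.000867). col5a3b had 8.11, 5.26 and 2.44 CPM in SP libraries, against 3.64, 1.92 and 1.37 in nonSP libraries. Its fractions overlapped across tumours, and its rise of 1.14 ± 0.41 (edgeR adjusted p = 0.0474) lost its call without any single tumour (adjusted p = 0.14, 0.227 and 0.0978 without 1404, 1279 and 1314) and with RLE or upper-quartile factors, TMM without ribosomal and mitochondrial genes, or equal depth. col5a3a, the fibrillar gene with the highest mean CPM (not scaled for length), had 0.682, 17 and 61.1 CPM in SP libraries, against 0.493, 11.6 and 51 in nonSP libraries. It differed by 89.6 times between tumours within SP and 103 times within nonSP, while its log2 fold change was 0.42 ± 0.37 (edgeR adjusted p = 0.435). col5a1, the chain found in nearly all type V molecules of mammals, had 8, 4 and 14 counts in SP libraries, against 1, 4 and 1 in nonSP libraries.

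Type I collagen, the main fibre of skin and bone, did not pass the test. col1a1b had 167, 21 and 475 counts in SP libraries, against 166, 0 and 217 in nonSP libraries. This corresponds to 2.48, 0.324 and 4.96 CPM in SP and 3.9, 0 and 4.79 CPM in nonSP, so the fractions overlapped and tumour 1404 was lower in SP. The log2 fold change was 0.18 ± 0.54 (edgeR adjusted p = 0.85), turning to -0.28 without tumour 1279, and 1.22 (adjusted p = 0.0472) with library totals. The partner chain col1a2 had 28, 17 and 1 counts in SP libraries, against 5, 3 and 5 in nonSP libraries, and col1a1a had 1, 12 and 3 counts in SP libraries, against 1, 3 and 1 in nonSP libraries, both too few to test. col11a1b had 49, 1 and 1326 counts in SP libraries, against 15, 0 and 594 in nonSP libraries, with a log2 fold change of 0.52 ± 0.51 (edgeR adjusted p = 0.492) that was 0.13 without tumour 1404. The remaining fibrillar genes, col11a1a and col27a1b, had at most 7 counts in a library. Reads of paralogous copies such as col2a1a and col2a1b may be divided between them by the counting, so a low copy is less certain than the pair.

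The beaded filament and anchoring collagens held the largest fold change of the 20 genes. col6a1 had 8.95, 11.3 and 8.18 CPM in SP libraries, against 0.517, 1.75 and 0.397 in nonSP libraries. The SP libraries lay close together and far above all nonSP libraries. Its log2 fold change was 3.7 ± 0.47, or 13-fold (edgeR adjusted p = 3.62e-05), with log2 ratios of 4.02, 2.66 and 4.25. Type VI filaments are built in mammals from an alpha 1, an alpha 2 and a further chain, and the partners differed from col6a1 in pattern. col6a2 had 7, 31 and 113 counts in SP libraries, against 0, 0 and 27 in nonSP libraries, with SP highest in tumour 1314. Its log2 fold change of 2.14 ± 0.85 missed the threshold in edgeR (adjusted p = 0.07), and passed in limma voom (2.19, adjusted p = 0.0381), with no filter (2.23, adjusted p = 0.0441) and with library totals (3.25, adjusted p = 0.000365). It also missed in DESeq2 (adjusted p = 0.053). In edgeR it missed with RLE (adjusted p = 0.0896) or upper-quartile factors (0.0812), at equal depth (0.135), and without tumour 1404 (0.132) or 1279 (0.251). col6a3 had 445, 23 and 39 counts in SP libraries, against 32, 1 and 3 in nonSP libraries, with SP highest in tumour 1404. It rose by 2.9 ± 0.61 (edgeR adjusted p = 0.00193), a call lost without tumour 1404 (2.52, adjusted p = 0.0951).

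Of the other members of this class, col7a1l had 144, 226 and 316 counts in SP libraries, against 29, 38 and 31 in nonSP libraries. It carries the name of type VII collagen, which forms anchoring fibrils below epithelium. Its levels were 2.13, 3.48 and 3.3 CPM in SP and 0.681, 2.14 and 0.684 CPM in nonSP, so nonSP of tumour 1279 slightly exceeded SP of tumour 1404. The rise was 1.54 ± 0.48 (edgeR adjusted p = 0.0245), and it missed the threshold without tumour 1404 (1.36, adjusted p = 0.0547) and without tumour 1314 (1.17, adjusted p = 0.219). col7a1, col28a1 and col6a6 had at most 17 counts in any library and were not tested.

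**Figure D3:**
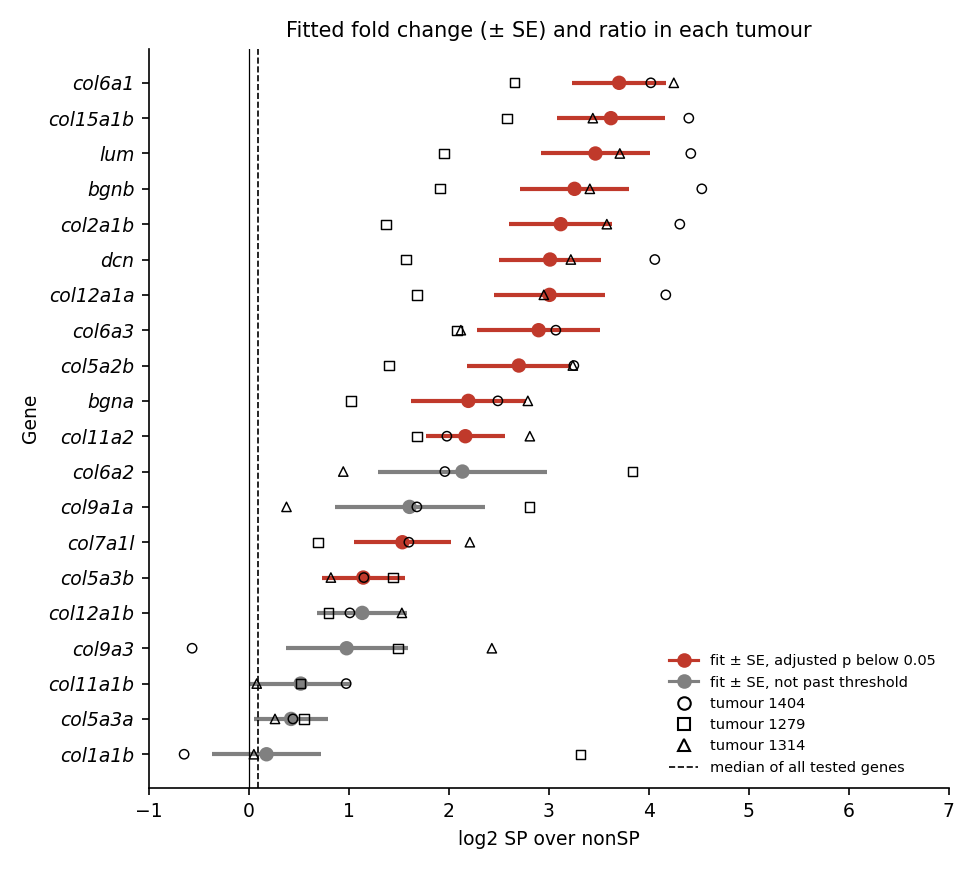
Fitted log2 fold change of SP over nonSP (filled points, SE as bars) and the log2 ratio in each tumour (open symbols) for the 20 tested genes, with the median of all tested genes as a dashed line at 0.09. Tumour 1279 (squares) has the smallest ratio in 12 of the 13 genes past the threshold.

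Of 8 FACIT genes, 4 were tested and 1 rose. col12a1a, a type XII chain that lies on type I fibrils, had 5.26, 4.96 and 1.77 CPM in SP libraries, against 0.258, 1.52 and 0.199 in nonSP libraries. The fractions did not overlap, and the log2 fold change was 3.01 ± 0.55 (edgeR adjusted p = 0.000595). Its copy col12a1b had 3.26, 3.56 and 2.23 CPM in SP libraries, against 1.6, 2.03 and 0.75 in nonSP libraries. These values did not overlap either, but the log2 fold change of 1.13 ± 0.45 missed the threshold (edgeR adjusted p = 0.0698). The type IX chains did not pass. col9a3 had 275, 35 and 72 counts in SP libraries, against 258, 3 and 5 in nonSP libraries. Its ratio went against the others in tumour 1404 (log2 ratio -0.57, against 1.49 and 2.43), and its fitted value of 0.98 ± 0.61 was 2.2 without tumour 1404 and 0.18 without tumour 1314. col9a1a had 127, 14 and 12 counts in SP libraries, against 24, 0 and 4 in nonSP libraries (1.61 ± 0.75, edgeR adjusted p = 0.122). col14a1a, not tested, had 216, 4 and 8 counts in SP libraries, against 174, 3 and 2 in nonSP libraries, nearly all of it in tumour 1404.

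Of the multiplexins 1 of 2 was tested. col15a1b, whose mammalian counterpart links basement membrane to the fibrils below it, had 5.19, 3.22 and 4.17 CPM in SP libraries, against 0.211, 0.508 and 0.353 in nonSP libraries. All SP libraries stood above 3 CPM and all nonSP libraries below 1 CPM, where the nonSP values rested on 9, 9 and 16 counts. col15a1b rose by 3.62 ± 0.54, or 12.3-fold (edgeR adjusted p = 6.34e-05). col18a1, the source of endostatin in mammals, had 4, 756 and 8 counts in SP libraries, against 2, 157 and 3 in nonSP libraries. It was found almost entirely in tumour 1279, in both fractions, and did not meet the count minimum in enough libraries to be tested.

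Basement membrane and network-forming collagens were nearly absent. The 11 genes of types IV, VIII and X together had 48 counts in the 3 SP libraries and 11 counts in the 3 nonSP libraries, and 0 were tested. col4a1 and col4a2, the chains of ubiquitous basement membrane, had 4 and 1 counts over all SP libraries, and 0 and 1 over all nonSP libraries. col8a2 had the most counts of this class, 3, 3 and 5 in SP and 3, 1 and 3 in nonSP. The transmembrane genes col17a1a and col17a1b, of the hemidesmosome of skin, had 28, 4 and 0 counts and 3, 1 and 0 counts in SP, and 14, 0 and 0 counts and 6, 2 and 1 counts in nonSP. In all, 28 of the 48 genes were not tested. Their median was 11 counts over the 6 libraries, against 1023.5 for the 20 tested genes, and 1 of them, col19a1, had 0 counts throughout. Most had too few counts at this depth to show a difference, while col18a1 (930 counts in all) and col14a1a (407 counts) were counted almost entirely in 1 tumour. A count of 0 allows up to 3 counts, which is 0.0313 to 0.0462 CPM in SP and 0.0662 to 0.169 CPM in nonSP, and this covers counting error only.

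Summed by class, SP was above nonSP in each tumour except for the transmembrane genes, whose sums were 0.46, 0.0771 and 0 CPM in SP and 0.47, 0.113 and 0.0221 CPM in nonSP. Proteoglycans summed to 28.7, 21.8 and 11.5 CPM in SP and 1.64, 6.88 and 0.993 CPM in nonSP, or 17.5, 3.17 and 11.6 times as much in SP. The beaded filament and anchoring class summed to 18.2, 15.7 and 13.1 CPM in SP and 2.28, 4.12 and 1.88 CPM in nonSP, or 7.98, 3.8 and 7 times as much. Both sets of SP values stood above all their nonSP values. Fibrillar genes summed to 53.4, 60.1 and 110 CPM in SP and 14.6, 27.1 and 73.7 CPM in nonSP, or 3.66, 2.22 and 1.49 times as much. FACIT genes summed to 17.7, 9.36 and 5.02 CPM in SP and 12.6, 3.89 and 1.32 CPM in nonSP, or 1.41, 2.4 and 3.79 times as much, with fractions overlapping across tumours. Multiplexins summed to 5.25, 14.9 and 4.26 CPM in SP and 0.258, 9.37 and 0.419 CPM in nonSP, or 20.3, 1.59 and 10.2 times as much, where tumour 1279 was mostly col18a1. The fractions of the fibrillar and multiplexin sums overlapped across tumours too. A single gene can carry such a sum. col5a3a held 55.5% of fibrillar counts in SP and 69.2% in nonSP of tumour 1314, against 1.28% in SP and 3.38% in nonSP of tumour 1404. The classes were not tested against each other. A paired exact test of 3 tumours cannot give a two-sided p below 0.25.

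**Figure D4:**
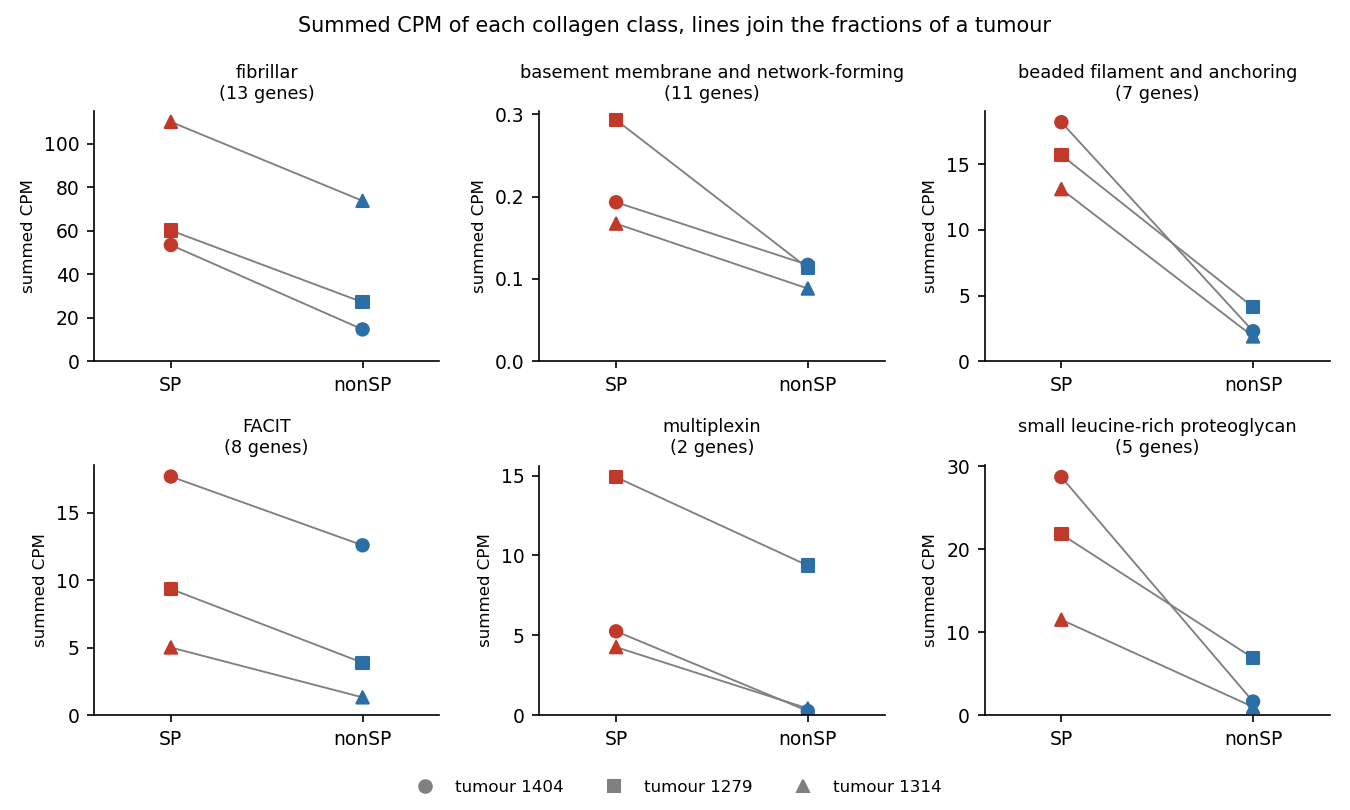
Summed TMM-scaled CPM of the members of each class in SP (left) and nonSP (right), with a line for each tumour. The vertical axes start at 0 and differ between panels, and the sums of types IV, VIII and X stay below 0.3 CPM.

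Members differed in whether tumour or fraction separated the libraries. Among the 13 genes that rose, the range over the tumours within SP, as log2 of the highest over the lowest CPM, had a median of 1.44 and exceeded 3 in 1 gene, col6a3. Among the 7 tested genes that did not pass it had a median of 3.57 and exceeded 3 in 5 genes, col1a1b, col5a3a, col11a1b, col6a2 and col9a1a. Within nonSP the genes that rose were less even, with ranges from 1.14 for col15a1b to 3.97 for bgnb. There the range exceeded 3 for bgnb, lum (3.65), dcn (3.46), col2a1b (3.13) and col6a3 (3.09), and bgna was at 3. For the genes that did not pass it went from 1.39 for col12a1b to 8.51 for col11a1b within nonSP. The groups were split by the test on these same libraries, so their contrast is a description and no separate evidence. Some wide ranges rest on few counts, such as 1 for col11a1b in SP of tumour 1279 and 7 for col6a2 in SP of tumour 1404. Over all tested genes the median range within SP was 1.55, and 15.9% exceeded 3. The highest SP ranges of the 20 genes were 8.08 for col11a1b and 6.41 for col5a3a, both highest in tumour 1314. Thus col5a3a and col11a1b varied with the tumour in both fractions, while col11a2, col6a1 and col15a1b had similar SP levels in the 3 tumours.

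**Figure D5:**
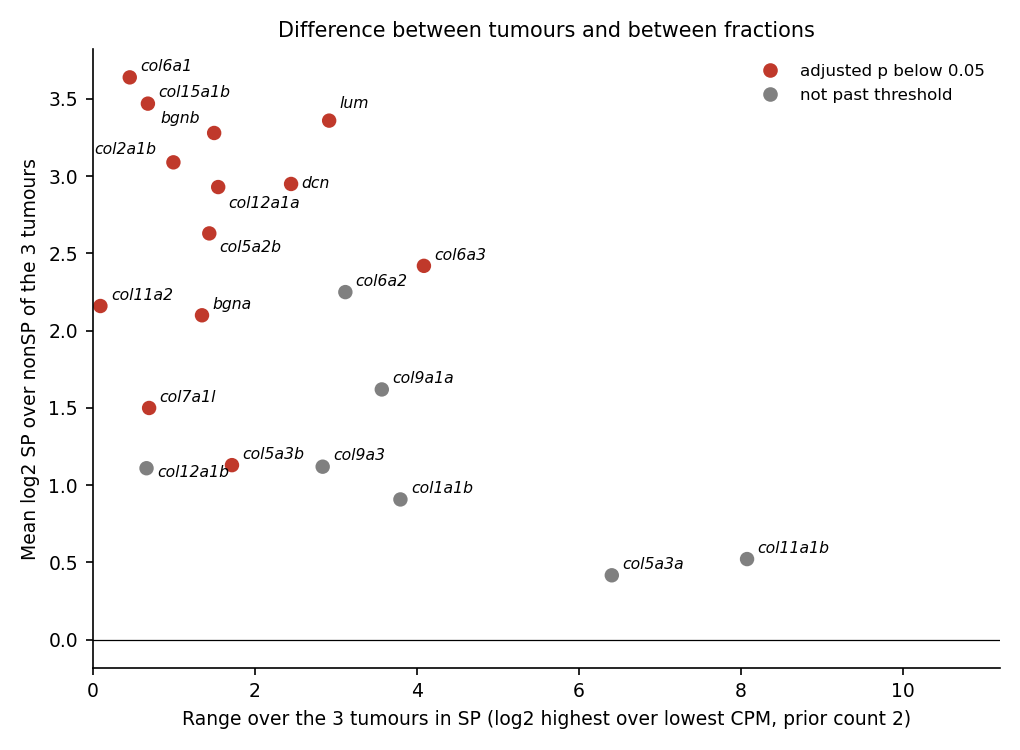
For the 20 tested genes, the range over the 3 tumours within SP (horizontal, log2) against the mean log2 ratio of SP over nonSP (vertical), with genes past the threshold in red. col11a2 and col6a1 have small SP ranges of 0.1 and 0.46, and col5a3a and col11a1b have ranges of 6.41 and 8.08 with mean ratios of 0.42 and 0.52. Ranges within nonSP are not drawn, and were 1.19 for col11a2 and 2.04 for col6a1.

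The size of the SP rise differed between the tumours. With 1 library of each fraction per tumour, a tumour cannot be told apart from its libraries. The median log2 ratio of the 13 called genes was 4.02, 1.68 and 3.22 in tumours 1404, 1279 and 1314, against 2.18, 1.14 and 1.81 for all 2047 genes that rose. Tumour 1279 had the smallest ratio in 12 of the 13 genes and in 65.1% of the 2047. Its nonSP library had the highest nonSP level in 11 of the 13 genes, a count whose share over all genes was not computed. It was also the library with the lowest total count. The part of depth in this difference was not tested.

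Counts of called genes in the pathway lists stand beside 13% higher and 9.40% lower over all tested genes, and beside 50.8% higher with library totals. The median log2 fold change of each list stands beside 0.09 over all tested genes. Enzymes and chaperones of collagen folding in the endoplasmic reticulum mostly did not pass, since 1 of 14 tested rose and 2 fell, with a median log2 fold change of -0.38. colgalt2, a collagen galactosyltransferase gene, had 36, 18 and 52 counts in SP libraries, against 1, 0 and 1 in nonSP libraries (4.59 ± 1.02). Its relative colgalt1 changed by -1.73 ± 0.36 (edgeR adjusted p = 0.00179), and ppib, a prolyl isomerase of the procollagen complex, by -1.22 ± 0.37. The prolyl hydroxylase gene p4ha1b stood at -0.95 ± 0.37 (edgeR adjusted p = 0.0637). The collagen chaperone genes serpinh1a and serpinh1b, known as HSP47, had almost no counts, serpinh1a 1 in each library of tumour 1404 and serpinh1b 0 throughout. Both shares of calls were near those of all genes. With library totals, 4 genes of the folding list were higher and 0 lower.

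Of 16 tested genes of procollagen export and trimming, 3 rose and 0 fell (13 and 0 with library totals), with a median of 0.63. They were adamts3, a protease that removes the amino-terminal propeptide (2.66 ± 0.58), and the COPII coat genes sec24c (1.46 ± 0.38) and sec23b (1.57 ± 0.46). sec24d stood at 0.91 ± 0.39 (edgeR adjusted p = 0.0904). Of 6 tested genes of crosslinking, 2 rose and 1 fell (2 and 0 with library totals), with a median of 0.47. loxl2b, a lysyl oxidase gene, had 5, 6.6 and 2.2 CPM in SP libraries, against 0.47, 0.621 and 0.0882 in nonSP libraries. It rose by 3.72 ± 0.52 (edgeR adjusted p = 3.62e-05), a size close to that of col6a1. loxl2a rose by 1.54 ± 0.43, loxl4 changed by -1.46 ± 0.48, and loxl3b stood at -1.52 ± 0.62 (edgeR adjusted p = 0.0774). Of 7 tested genes of degradation, 1 was higher and 0 lower (4 and 0 on library totals), with a median of 0.505. It was reck, a membrane inhibitor of matrix metalloproteinases, at 2.42 ± 0.44. The gelatinase gene mmp9 had 23825, 858 and 1017 counts in SP libraries, against 6822, 216 and 202 in nonSP libraries (0.84 ± 0.39, edgeR adjusted p = 0.122). fap stood at 1.27 ± 0.72 (edgeR adjusted p = 0.207) and mmp13a at 0.51 ± 0.55 (edgeR adjusted p = 0.541).

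Among collagen receptors 8 were tested, of which 3 rose and 0 fell (7 and 0 with library totals), with a median of 1.27. adgrg6, an adhesion receptor that binds type IV collagen in mammals, rose by 2.83 ± 0.55, adgrg1, whose mammalian counterpart binds type III collagen, by 1.48 ± 0.39, and itgb1a, the beta 1 integrin subunit, by 1.17 ± 0.38. The discoidin receptor gene ddr1 stood at 1.36 ± 0.65 (edgeR adjusted p = 0.134). Other leucine-rich proteoglycans gave 2 rising and 0 falling genes of 7 tested (5 and 0 with library totals, median 0.74), kera and epyc, with chad at 1.93 ± 0.74 (edgeR adjusted p = 0.0618) and chadla at -0.88 ± 0.45 (edgeR adjusted p = 0.162). Of 25 other matrix glycoprotein genes tested, 9 were higher and 5 lower (14 and 1 using library totals), with a median of 0.915. The fibrillin gene fbn2a rose by 3.87 ± 0.66, sparcl1 by 2.29 ± 0.4 and the laminin gene lamc1 by 2.39 ± 0.52, while efemp2b, a fibulin gene, changed by -2.6 ± 0.38. Other laminin genes went both ways, with lama3 rising by 2.57 ± 0.9, lamb1b changing by -1.97 ± 0.61 and lamc3 by -1.62 ± 0.56. sparc, a collagen-binding protein of bone, had 1, 2 and 5 counts in SP libraries, against 3, 0 and 2 in nonSP libraries. Of 15 tested TGF-beta pathway genes, regulators of matrix production, 4 rose and 0 fell (12 and 0 with library totals), with a median of 0.675. These were smad7 (2.15 ± 0.5), ltbp1 (2.8 ± 0.67), smad3a (1.56 ± 0.42) and ltbp3 (2.26 ± 0.65).

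Markers of cell types that make matrix gave sums that differed by list and tumour, and their part in the collagen result was not tested. Calls in all marker lists, here and below, also stand beside 13% higher and 9.40% lower over all tested genes. The 14 fibroblast markers in the tables summed to 14.9, 3.58 and 1.85 CPM in SP and 29.9, 7.84 and 8.23 CPM in nonSP. Of 3 tested, 0 rose and 1 fell. This was thy1 (-2.28 ± 0.43), the most abundant, followed by twist1a (0.64 ± 0.62, edgeR adjusted p = 0.489) and fap. Without thy1, left out after its values were seen, the other 13 markers summed to 5, 1.87 and 1.24 CPM in SP and 2.96, 0.846 and 1.61 CPM in nonSP, higher in SP of tumours 1404 and 1279 and lower in SP of 1314. The defining marker pdgfra had 4, 7 and 1 counts in SP libraries, against 2, 0 and 0 in nonSP libraries, and cxcl12a had 0 counts in all 6 libraries. tcf21 had 162, 2 and 4 counts in SP libraries, against 7, 0 and 0 in nonSP libraries. The 11 chondrocyte markers summed to 17, 17.1 and 6.69 CPM in SP and 16.4, 18.7 and 5.47 CPM in nonSP, and of 5 tested 0 rose and 1, matn1, fell (-1.41 ± 0.48). Their most abundant genes were matn3a, sox9a and matn1, and the cartilage proteoglycan gene acana had 6, 23 and 1 counts in SP libraries, against 0, 2 and 0 in nonSP libraries. The 9 osteoblast markers summed to 9.06, 1.28 and 10 CPM in SP and 3.5, 0.959 and 11.7 CPM in nonSP, higher in SP of tumours 1404 and 1279. Of 4 tested, sp7, a transcription factor of bone, rose (3.21 ± 0.71, with 100, 19 and 124 counts in SP and 8, 1 and 4 counts in nonSP), and spp1 and bglap had at most 4 counts in any library. The most abundant osteoblast markers were alpl, ifitm5 and runx2b. alpl stood at -0.49 ± 0.53 (edgeR adjusted p = 0.534) and ifitm5 at -0.15 ± 0.71 (edgeR adjusted p = 0.902). entpd5a stood at 0.8 ± 0.59 (edgeR adjusted p = 0.349). runx2b, not tested, had 216, 0 and 2 counts in SP libraries, against 37, 1 and 2 in nonSP libraries.

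Of the other cell types, the 20 skeletal muscle markers summed to 44.7, 74 and 79.8 CPM in SP and 9.77, 33.4 and 12.1 CPM in nonSP. Of 9 tested, 2 rose and 0 fell, neb (2.93 ± 0.47) and ttna (2.77 ± 0.53), which with mylz3 were the most abundant. neb had 30, 57.7 and 42.3 CPM in SP and 1.83, 22.6 and 4.1 CPM in nonSP. ttna had 4.71, 9.94 and 30.9 CPM in SP and 0.446, 5.59 and 1.88 CPM in nonSP. neb and ttna thus carried most of the SP sums. Of the 9 tested, 5 had a positive fold change, and mylz3 stood at -0.26 ± 0.45 (edgeR adjusted p = 0.723). The actin gene acta1b stood at -0.87 ± 0.6 (edgeR adjusted p = 0.305), and ckma and pvalb1 had at most 2 counts in any library. The part of muscle transcripts in the collagen result was not tested. The 13 endothelial markers summed to 16, 41.7 and 6.55 CPM in SP and 31.4, 79 and 14.4 CPM in nonSP, with 1 rising and 2 falling of 6 tested, led by fli1b, fli1a and tek, and with cdh5 and kdrl at no more than 1 count in any library. The 12 mural markers summed to 5.06, 23.7 and 6.4 CPM in SP and 4.49, 21.3 and 7.13 CPM in nonSP, with rgs5b rising of 5 tested, and were led by myh11a, desmb and rgs5b. Epidermal markers (14 genes) summed to 2.08, 2.34 and 11.8 CPM in SP and 0.94, 1.81 and 2.49 CPM in nonSP, where tp63 rose and the keratin genes krt4 and krt5 had at most 6 counts in any library. Their most abundant genes were tp63, cldni and krt8. Macrophage and neutrophil markers summed to 179, 17.9 and 203 CPM in SP and 119, 13 and 357 CPM in nonSP. The list was led by cd74b, cd74a and mmp13a. Of 6 tested, mpx rose (3.33 ± 0.47, edgeR adjusted p = 4.42e-05) and 0 fell. mpx had 37.3, 3.55 and 3.12 CPM in SP and 2.77, 0.846 and 0.176 CPM in nonSP, so it was higher in SP of each tumour. mfap4 stood at 1.52 ± 0.74 (edgeR adjusted p = 0.143), npsn at 0.61 ± 0.66 (0.538), cd74a at -0.43 ± 0.38 (0.443) and cd74b at -0.08 ± 0.4 (0.903). Nearly all of both sums of tumour 1314 came from cd74a (SP 108 CPM, nonSP 197) and cd74b (SP 91.2 CPM, nonSP 159). The sums of tumour 1404 also held mmp13a (SP 63.3 CPM, nonSP 34.1) and the highest mpx levels of the 3 tumours. In tumour 1279 cd74a (SP 2.67 CPM, nonSP 3.61) and cd74b (SP 10.1 CPM, nonSP 6.26) were lower. Which cells the cd74a and cd74b transcripts came from was not tested. Other markers were scarce, since mfap4 and npsn never exceeded 42 counts, and mpeg1.1, csf1ra, marco and c1qa never exceeded 7 counts. lyz never exceeded 2 counts, apart from 24 for nonSP of tumour 1279. Erythrocyte markers (29.5, 9.54 and 15.6 CPM in SP and 55.6, 7.73 and 6.53 CPM in nonSP) were led by epb41b, alas2 and slc4a1a, of which slc4a1a rose. The globin genes went the other way and were not tested. ba1 had 0, 1 and 0 counts in SP libraries, against 47, 17 and 2 in nonSP libraries. hbaa1 had 0, 3 and 0 counts in SP libraries, against 21, 9 and 0 in nonSP libraries. Thrombocyte markers were 1.43 to 3.85 CPM in SP and 1.54 to 4.34 CPM in nonSP, with 0 of 4 called, led by f13a1b, gp1bb and thbs1b, and itga2b had 0 counts.

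Lymphoid markers, the check on the labelled tissue, summed to 356, 951 and 231 CPM in SP and 507, 1230 and 403 CPM in nonSP. Of 17 tested, blnk rose (1.31 ± 0.46, edgeR adjusted p = 0.041), and rag2 (-1.45 ± 0.38) and ptprc (-1.14 ± 0.37) fell. blnk had 1901, 0 and 1430 counts in SP libraries, against 470, 0 and 280 in nonSP libraries, so its call rests on tumours 1404 and 1314. The most abundant lymphoid markers were rag1, lck and rag2. rag2 was counted at least 2085 times in every library. The B cell genes pax5 and cd79b had at most 2 counts in either library of tumour 1279, and at least 291 in each library of tumours 1404 and 1314. Other B cell genes were counted in tumour 1279, cd79a 95 times in SP and 22 in nonSP, and ebf1a 157 and 24 times. Each was lower there than in the other tumours. The T cell genes lck (15390 in SP, 5074 in nonSP), cd8a (2257 and 447), tcf7 (5855 and 1712) and il7r (1619 and 339) had their highest counts in tumour 1279. The lineage of the tumours was not tested.

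The genes whose log2 CPM over the 6 libraries was most like that of col6a1, the called gene of lowest p, were pof1b, fer1l6, CR376783.1, FAM132B and slc25a36b (Pearson r of 0.999, 0.997, 0.995, 0.995 and 0.994, libraries sharing tumours in pairs). They were picked as the 5 highest values among 15770 tested genes over only 6 libraries, and 2047 genes rose in SP. Whether the likeness is particular to col6a1 was not tested. None of the 5 is a collagen or proteoglycan by name. Among pairs of the 20 tested genes, the next highest correlations after lum with dcn were col12a1a with col2a1b (0.992) and bgna with dcn (0.989). The lowest was col5a3a with col9a3 (-0.848).

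Of the ceramide transfer genes that share the symbol pattern, 1 rose and 1 did not pass, and they were not tested against each other. col4a3bpb had 22.1, 40.9 and 10.2 CPM in SP libraries, against 5.36, 30.9 and 3.9 in nonSP libraries, and rose by 1.27 ± 0.39 (edgeR adjusted p = 0.0215), a call lost without tumour 1404 (0.77, adjusted p = 0.155) or 1314 (1.22, adjusted p = 0.114). col4a3bpa had 4.51, 3.13 and 1.13 CPM in SP libraries, against 3.34, 6.43 and 0.64 in nonSP libraries, with a log2 fold change of 0.06 ± 0.46 (edgeR adjusted p = 0.945) that changed sign with the scaling.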

How the data were processed

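RNA was sequenced from SP and nonSP cells of 3 zebrafish tumours, and the authors deposited raw counts per gene symbol, 1 table per library (29095 symbols). Per the submitters' processing notes, tools included STAR 2.5.1b, featureCounts 1.28.1 and edgeR 3.20.7 with build GRCz10. The strand setting and annotation release were not given in sources used here, so overlapping and antisense genes cannot be told apart.

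Groups and tumour numbers came from sample titles. Same-numbered libraries come from 1 tumour, and their deviations from the fraction means correlated at 0.753, 0.839 and 0.818 (-0.274 to -0.485 between tumours). Because each mean is over only 3 libraries, positive values within tumours push those between tumours below 0, so the contrast is partly built in. Every 2 libraries differed beyond sampling noise (chi-square at least 293 times its degrees of freedom). The analysis of counts used edgeR 4.0.16 under R 4.3.3 (filterByExpr by group, minimum count 10 and total 15; TMM; glmQLFit robust; tumour as a block; Benjamini-Hochberg at 0.05), and tested on simulated data. The SE is the size of the log2 fold change divided by the square root of F, and draws mainly on information shared across genes (prior df 23.2). Log2 ratios per tumour used a prior count of 2. DESeq2 1.42.0, limma 3.58.1 (voom), other scalings and filters, thinning, no block and each tumour left out were alternatives.

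Members, gene lists and the rule for named genes were chosen with earlier results of these data known. Named were every called member, up to 4 members per pathway list by p and the 3 most abundant markers per cell type. Defining markers, chaperones, laminins, further list genes and low members were named after their values were seen. RefSeq (assembly GRCz12tu) supplied gene order alone, and 45 of 50 member symbols matched it. Transcript lengths, coordinates and sequences were not used here.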

Additional observations from a re-analysis of the deposited data

How the results depend on the processing

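The count of members that rose was 14 of 22 tested, with 13% of all tested genes higher. It was 13 to 15 of 22 (all genes 10.8% to 13.7%) under other tools or factors. These were DESeq2, limma voom, RLE, upper-quartile and TMM without ribosomal and mitochondrial genes. At equal depth 13 of 21 rose (13.3%), with the stricter filter 12 of 17 (14.1%) and with no filter 15 of 49 (10.1%). An adjusted p of 0.1 gave 16 of 22 (2877 of all genes), and library totals 21 of 22 (50.8%). Without tumours 1404, 1279 and 1314 it was 10 of 23, 13 of 24 and 10 of 25 (7.85%, 8.37% and 7%). With no replicate block edgeR called 0 members and 0 genes in either direction (1251 genes at an unadjusted p below 0.05). DESeq2 with no block called 2 members (0.114% of all genes higher) and limma voom 0 (0%), both settings being added after seeing the data. No setting called a member lower. Over all genes, library totals gave 8015 higher and 277 lower (96.7% higher, against 58.0%), and leaving out a tumour gave 1141 to 1396 higher and 667 to 1685 lower. The members' median log2 fold change of 2.15 was 3.24 with library totals, 1.21 with no filter (49 members in the fit) and 1.3 to 1.85 with a tumour left out. Its excess over the median of all genes was 2.06, and 2.09 with library totals, 0.987 with no filter, 1.73 with no block and 1.19 to 1.86 with a tumour left out. Values that changed sign were col1a1b (-0.17 with no block, -0.28 to 0.628 with a tumour left out), col9a3 (-0.25 with no block) and col4a3bpa (-0.0221 in DESeq2, -0.026 with RLE, -0.00718 with upper-quartile factors, -0.24 with no block, -0.294 to 0.632 with a tumour left out). The mean log2 ratio of class sums with library totals was 2.27 for fibrillar (1.2 with TMM), 2.08 for network-forming (1), 3.65 for beaded filament (2.58), 2.3 for FACIT (1.23), 2.13 for ceramide transfer genes (1.06) and 2.43 for the 48 genes (1.36). For proteoglycans it was 4.18 (3.11 with TMM), and for multiplexins 3.86 (2.79). The scaling itself moves these, and the cause of the other changes was not tested. Genes near the count minimum carry the most counting error.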

Other observations

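Further collagen genes are listed in capitals and fall outside the symbol rule, as does fmodb. Of these 14 genes 1 was tested, COL14A1 (2 of 2), with 133, 102 and 154 counts in SP and 126, 15 and 150 counts in nonSP and a log2 fold change of -0.32 ± 0.49 (edgeR adjusted p = 0.681). COL16A1 had 0, 126 and 7 counts in SP libraries, against 2, 30 and 5 in nonSP libraries, and like col18a1 it was found mainly in tumour 1279.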
